A study of Homo sapiens with 4 samples.

Results

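The miRNAs miR-21, miR-155, miR-146a and miR-146b were followed through the 8 assays that bear their names among 737 miRNA assays of a human PCR array made of 2 panels. The members are hsa-miR-21, hsa-miR-21*, hsa-miR-155, hsa-miR-155*, hsa-miR-146a, hsa-miR-146a*, hsa-miR-146b-5p and hsa-miR-146b-3p, so that each of the 4 hairpins was read on its 5p and its 3p arm. They were taken by name, as miRNAs whose genes respond to the stress-activated transcription factors NF-kB and AP-1. All 4 samples were total RNA of U2OS, a human osteosarcoma cell line, with 1 sample per group. The shDDX1 sample came from cells carrying a lentiviral short hairpin RNA against DDX1, an RNA helicase of the DEAD-box family. The shNS sample came from cells carrying a control hairpin, and both were selected in puromycin at 2 µg/ml. The NCS sample came from cells exposed for 6 h to 500 ng/ml neocarzinostatin, an enediyne that breaks both DNA strands, and the untreated sample from cells without the drug. No infection is given for the NCS pair. The study asked which miRNAs need DDX1 for the processing of their primary transcripts, and the NCS pair shows which miRNAs differ after DNA damage.

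A primary miRNA transcript is cut in the nucleus by Drosha and again in the cytoplasm by Dicer, after which 1 arm of the duplex, the guide, is usually kept in an Argonaute protein and the opposite arm, written with a star in older names, is mostly lost. NF-kB is switched on by inflammatory signals and, through the ATM kinase, by DNA breaks, and AP-1 is the Jun and Fos dimer of mitogen and stress signalling. miR-21 is abundant in most tumour cells and represses the tumour suppressor PDCD4. miR-155, cut from the BIC transcript (MIR155HG), represses SOCS1 and INPP5D and is best known in activated lymphocytes and macrophages. miR-146a and miR-146b repress IRAK1 and TRAF6, adaptors that lead to NF-kB, and are a known brake on that pathway.

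The mature sequences are shown because the seed, bases 2 to 8, decides which messages a miRNA pairs with, and because 2 of the guides share it. RefSeq entries for GRCh38.p14 matched 7 of the 8 members, and 6 are shown. In each line the seed is in capitals, written 5′ to 3′.
miR-21: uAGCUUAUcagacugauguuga
miR-155: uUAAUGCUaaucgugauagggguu
miR-155*: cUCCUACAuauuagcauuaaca
miR-146a: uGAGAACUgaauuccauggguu
miR-146b-5p: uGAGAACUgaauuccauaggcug
miR-146b-3p: gCCCUGUGgacucaguucuggu

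miR-146a and miR-146b-5p carry the seed GAGAACU and have the same first 17 bases. Counted from the 5′ end of miR-146a, they differ by G18A and U21C over the 22 positions compared, and miR-146b-5p is 1 base longer, at 23. With assays so alike in sequence, cross-reading between them was not tested. In RefSeq the seed GAGAACU is also that of miR-7153-5p. The seed of miR-21 is shared with miR-590-5p, which the panels also hold, and the seed of miR-155 with no other RefSeq mature miRNA.
miR-590-5p: gAGCUUAUucauaaaagugcag

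The hairpins of MIR21 and MIR146B show where the arms lie, since a primary transcript is cut at their base. MIR21 lies at chr17:59841266-59841337 on the plus strand, within the protein-coding gene VMP1. MIR155 lies at chr21:25573980-25574044 within MIR155HG, and MIR146A at chr5:160485352-160485450 within the long non-coding RNA gene MIR3142HG. MIR146B, at chr10:102436512-102436584, is within no other annotated gene. The mature arms are in capitals, for MIR21 only the 5p arm.
MIR21: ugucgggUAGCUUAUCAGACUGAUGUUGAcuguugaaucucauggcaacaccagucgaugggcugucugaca
MIR146B: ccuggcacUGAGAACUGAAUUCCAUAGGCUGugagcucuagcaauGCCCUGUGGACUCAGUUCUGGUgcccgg

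Since NF-kB and AP-1 gave these miRNAs their grouping, the promoter windows of the host genes, 250 bases before to 50 after the annotated start, were searched on both strands for GGACTTTCC, the last 9 bases of the kB element of the immunoglobulin kappa gene, and for the AP-1 heptamer TGAGTCA. The window of MIR3142HG held GGACTTTCC with its first base at -119 from the start, and that of MIR155HG held TGAGTCA at -60. Among 35116 RefSeq promoter windows of this length, 0.37% held the first motif and 4.95% the second. The VMP1 window held neither, but sequence nearer to MIR21 within that gene was not searched, so this does not speak to other starts of its transcript. These are matches of letters, and binding was not measured. The lines show the motif in capitals with 20 bases on each side, at chr5:160468112-160468160 and chr21:25562065-25562111, plus strand.
MIR3142HG: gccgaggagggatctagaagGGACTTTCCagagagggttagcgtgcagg
MIR155HG: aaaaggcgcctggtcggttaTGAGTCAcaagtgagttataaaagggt

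The measurement is the quantification cycle (Ct), the PCR cycle at which the signal of a well crosses a threshold, so a lower Ct means more miRNA and 1 cycle is taken as 1 doubling. Ct under 35 counted as quantified. It was reached in 723 of 740 miRNA wells in shDDX1, 732 in shNS, 591 in NCS and 521 in untreated cells. The level of a miRNA is its Ct subtracted from the sample's mean Ct over the 499 wells under 35 in all 4 samples, and a log2 ratio is a difference of levels. The groups hold 1 sample each, so no difference has a replicate check or a p-value. As a technical yardstick, 7 assays present on both panels gave an SD of the log2 ratio of 0.38 for shDDX1 over shNS and 0.79 for NCS over untreated. Without miR-423-5p, left out after its discordant wells were seen, the 2 values were 0.32 and 0.35. Of the 7 repeated assays only 3 read miRNAs, all in plate column 2, and the rest are small RNA references or a control. Whether the spread is as small for miRNAs in other columns or at late Ct was not tested. A difference in every cell and a difference in a fraction of the cells cannot be told apart in such bulk RNA.

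miR-21 was among the earliest readings on the array. Its Ct was 17.2 in shDDX1, 16.6 in shNS, 19.7 in NCS and 23.4 in untreated cells. Ordered by Ct, it ranked 3 of 735 assays with a reading in shDDX1, 6 of 736 in shNS, 4 of 679 in NCS and 20 of 639 in untreated cells. Assays differ in efficiency, so ranks between assays are approximate. Its opposite arm miR-21* read 21.4 in shDDX1, 21.5 in shNS, 27.5 in NCS and 27.7 in untreated cells.

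miR-155 read Ct 26.6 in shDDX1, 24.8 in shNS, 28.0 in NCS and 34.7 in untreated cells, the last just inside the limit of 35. miR-146a read 25.5 in shDDX1, 24.7 in shNS, 28.5 in NCS and 28.6 in untreated cells. These readings put miR-155 and miR-146a close together in shNS, at ranks 179 and 173, and far apart in untreated cells, at ranks 498 and 142. miR-146b-5p was weaker, at 30.9 in shDDX1, 28.6 in shNS, 31.0 in NCS and 32.8 in untreated cells.

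The 3p arms on panel II were among the weakest members. miR-155* read 31.5 in shDDX1, 31.1 in shNS, 33.3 in NCS and 33.4 in untreated cells. miR-146a* read 30.5 in shDDX1, 30.0 in shNS, 34.4 in NCS and 33.3 in untreated cells. miR-146b-3p read 29.4 in shDDX1, 29.6 in shNS and 31.5 in untreated cells, and gave no Ct in NCS cells, the only missing reading among the 8 members. The earliest water well of panel II read 26.5 in shDDX1 and 26.6 in shNS, and that of panel I 27.3 and 27.8. The 3 members on panel II and miR-146b-5p, 4 of 8 in all, therefore read later than a water well of their own panel in shDDX1 and in shNS, and a share of background signal in them was not tested. No water well gave a Ct in the NCS pair.

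**Figure D1:**
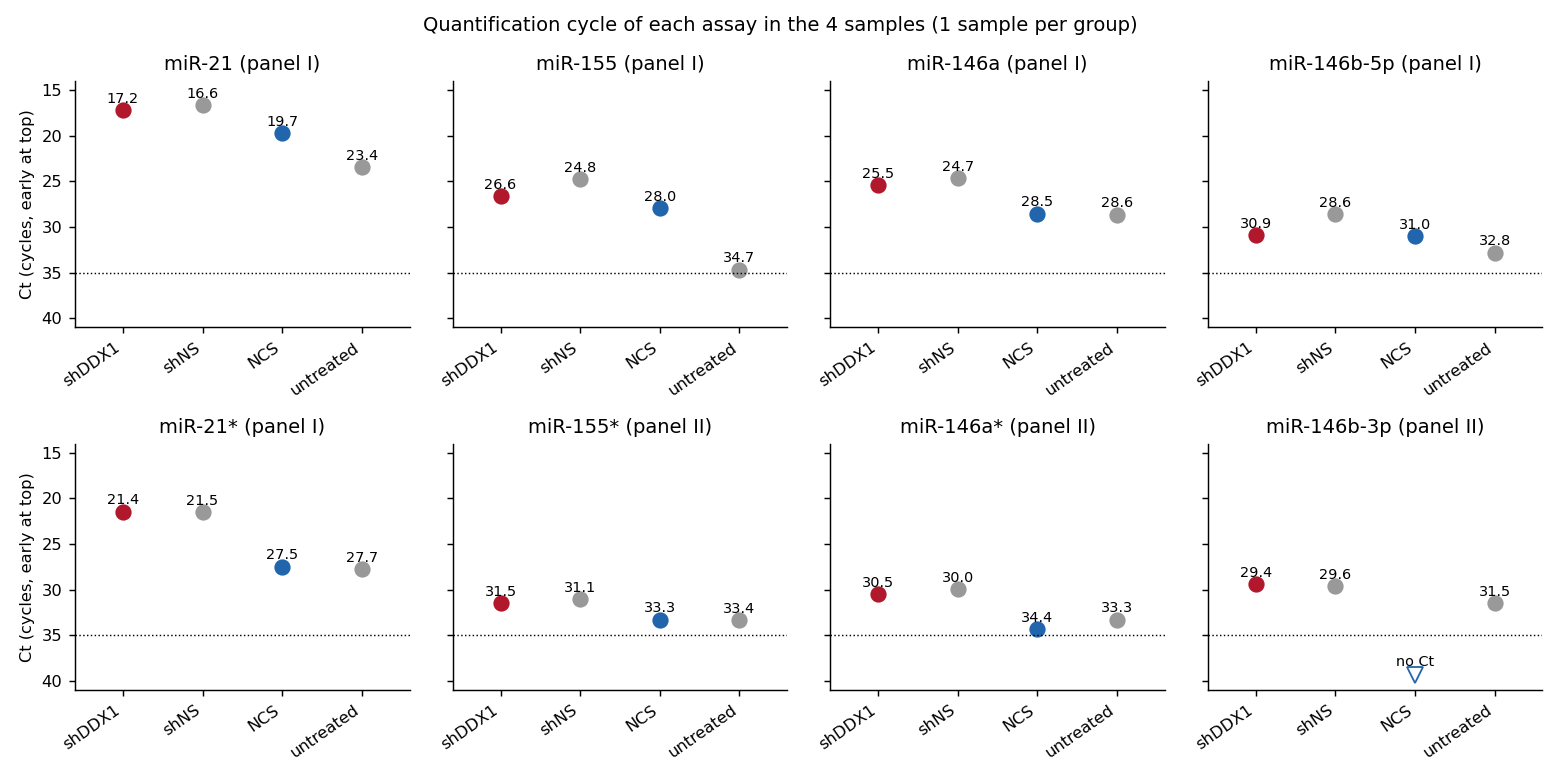
Ct of the 8 assays in the 4 samples, with early readings at the top of the axis; the upper row holds the 5p arms, the lower row the 3p arms, and the dotted line marks Ct 35. In untreated cells miR-155 sits at 34.7, just above the line, and in NCS cells miR-146b-3p has no Ct.

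Over the 4 samples, the order of centred levels set untreated cells apart for the guides of miR-21 and miR-155. The miR-21 level was 9.64 in NCS, 9.18 in shNS, 8.91 in shDDX1 and 6.69 in untreated cells on the log2 scale. Neighbours among the 3 highest did not differ by more than the spread of the repeated assays. NCS and shDDX1 lay further apart than the spread of that pair, 0.37. The step down from shDDX1 to untreated cells was 2.22. The miR-155 level was 1.41 in NCS and 1.08 in shNS, within that spread, then -0.45 in shDDX1 and -4.59 in untreated cells. For miR-146a no neighbouring pair of samples differed beyond the spread, with levels from 1.46 in untreated cells to 0.69 in shDDX1. These ends lay further apart than the spread of that pair of samples, 0.71. miR-146b-5p stood at -1.62 in NCS, at -2.72 in untreated cells and -2.79 in shNS, which were within the spread, and at -4.78 in shDDX1. Samples of different pairs were run at different overall Ct, with a mean of the common wells of 26.1 in shDDX1, 25.8 in shNS, 29.4 in NCS and 30.1 in untreated cells, so this order leans on the centring more than the ratios within a pair do.

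Relative to shNS, 2 of the 8 members were lower in shDDX1 cells by at least 2-fold, and 0 were higher by that margin. Over all 716 quantified miRNAs 17.3% were lower and 11.0% higher, so the share of lower members, 2 of 8, was near that of the array. Both lower members were guides on panel I, miR-146b-5p at 3.97-fold lower and miR-155 at 2.89-fold lower. Their log2 ratios of -1.99 and -1.53 were 5.17 and 3.98 times the spread of the repeated assays. That spread does not cover plate position, and its size at late Ct was not tested. The median over the 8 members was -0.24, against 0.04 over all quantified miRNAs.

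miR-21, the most abundant member, was close to its control. Its log2 ratio was -0.27, or 1.21-fold lower, within the spread of repeated assays, and it lay above 0 in 2 of 7 scalings. miR-21* was at 0.35, miR-146a at -0.48, miR-146a* at -0.20, miR-155* at -0.11 and miR-146b-3p at 0.51. Of these, miR-21* and miR-146b-3p changed sign between scalings, while miR-146a passed 2-fold in 1 of 7, against small RNAs, at -1.15. The hairpins of miR-155 and miR-146b had a lower 5p arm on panel I without a 2-fold lower 3p arm on panel II. The panel medians were -0.42 and 0.46. With each panel centred, miR-155 was at -1.11 and miR-155* at -0.54, and miR-146b-5p was at -1.57 and miR-146b-3p at 0.07. Both 3p arms and miR-146b-5p read later than a water well of their panel. A contrast of arms apart from panel and background was not tested. miR-590-5p, with the seed of miR-21, read Ct 24.4 in shDDX1 and 22.7 in shNS, a log2 ratio of -1.40.

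After NCS, 3 of the 7 members quantified in the pair were at least 2-fold higher and 1 was at least 2-fold lower. Over all 498 quantified miRNAs 16.9% were higher and 22.3% lower. miR-155 was 64.04-fold higher, a log2 ratio of 6.00 and the 7th highest of the 498, and miR-21 was 7.71-fold higher, at 2.95 and rank 27. miR-146b-5p was 2.14-fold higher, at 1.10 and rank 77. The last is 1.38 times the spread of the repeated assays, against 7.55 times for miR-155 and 3.71 times for miR-21. Plate position is not covered by that spread, and its size at late Ct, as for miR-155 in untreated cells, was not tested.

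miR-146a, with the seed of miR-146b-5p, was below 0 with mean centring, but its sign changed between scalings. Its log2 ratio was -0.63, within the spread, and it ran over the 7 scalings from -1.43 with each panel centred to 0.16 against small RNAs. miR-21* at -0.47 and miR-155* at -0.64 were also within the spread and changed sign between scalings, with miR-21* at -1.28 when each panel was centred. Against the spread of 0.35 without miR-423-5p, all 3 of these ratios lay outside it. miR-146a* was 3.48-fold lower, at -1.80, from Ct 34.4 in NCS and 33.3 in untreated cells, close to the limit. It was no longer past 2-fold with each panel centred, at -0.97, or with neighbouring wells subtracted, at -0.99. miR-146b-3p, with no Ct in NCS cells, was at least 18.6-fold lower when NCS was set to Ct 35, and between 10.5-fold and 18.3-fold in the other 6 scalings. These bounds rest on 1 empty well and hold only if its reaction worked, which was not tested. miR-590-5p, with the seed of miR-21, read Ct 24.7 in NCS and 28.4 in untreated cells, a log2 ratio of 2.95. The median over the 7 quantified members was -0.47, against -0.38 over all quantified miRNAs, and with each panel centred 0.19 against -0.20.

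The pairs have no sample in common. miR-155 and miR-146b-5p were the members past 2-fold in each, lower in shDDX1 than in shNS and higher in NCS than in untreated cells. miR-21 passed 2-fold in the NCS pair and not in the knockdown pair, and the difference between its ratios has no test.

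**Figure D2:**
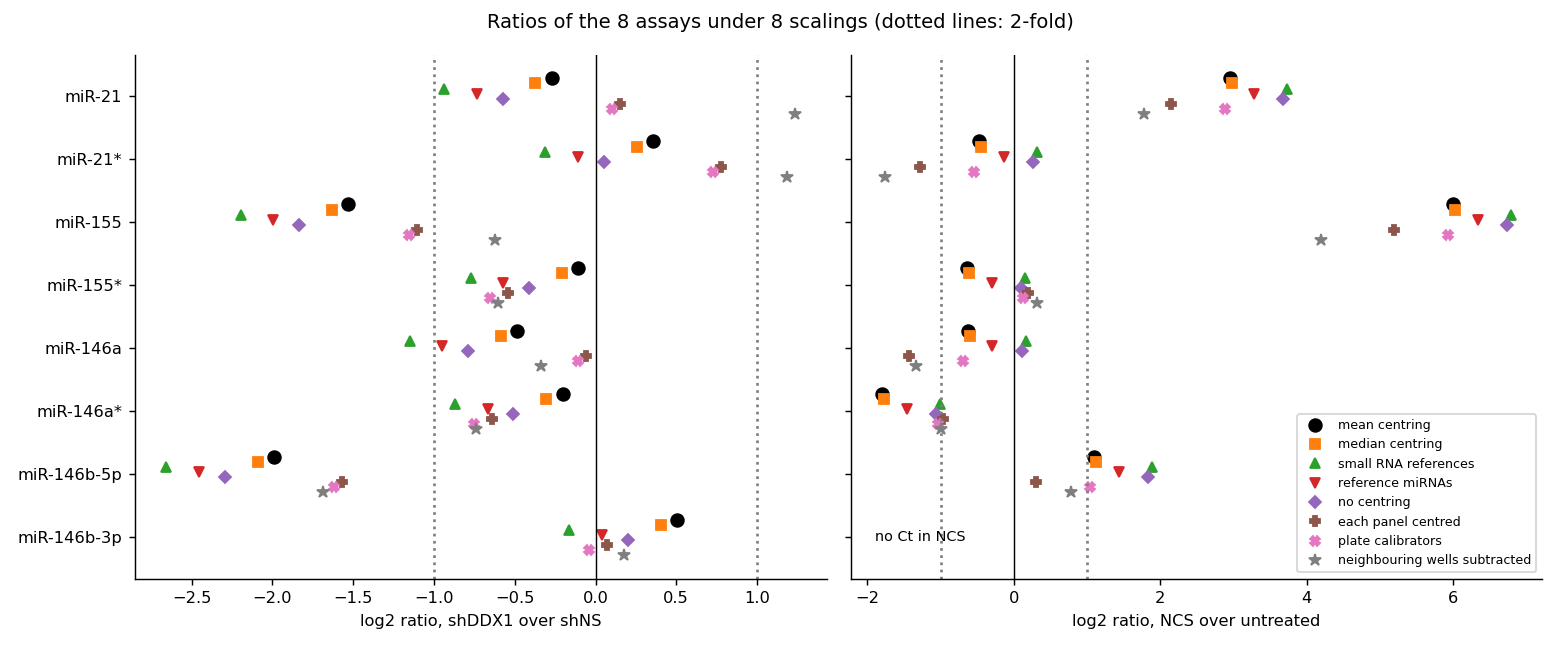
Log2 ratio of each member in shDDX1 over shNS (left) and NCS over untreated (right) under 8 ways of scaling, each a symbol; dotted lines mark 2-fold. miR-155 and miR-146b-5p stay left of the 2-fold line in shDDX1 in all scalings but for miR-155 with neighbouring wells subtracted, at -0.62, and miR-155 and miR-21 stay right of it after NCS in all 8.

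Where an assay lies on the array matters for these ratios, because the panels and their columns differed as a whole. All 4 guides and miR-21* lie on panel I, in columns 10 to 16, and the other 3 star arms on panel II. On panel I the median log2 ratio was -0.42 in shDDX1 over shNS and 0.30 in NCS over untreated, and on panel II 0.46 and -0.84. A 2-fold lower ratio in shDDX1 was found in 29.0% of panel I wells, and a 2-fold higher ratio after NCS in 30.4%. In its middle columns, 7 to 18, these shares were 41.1% and 55.8%. The direction of miR-155 and miR-146b-5p in both pairs was therefore the prevailing direction of their part of the plate.

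Measured against their surroundings, the members parted. After NCS, miR-155 was 5.70 above the median of panel I on the log2 scale and 4.19 above the median of the 16 quantified miRNA wells within 2 rows and 2 columns. miR-21 was 2.65 above its panel and 1.78 above 12 such neighbours. Wells not quantified in untreated cells are missing from these medians. In the knockdown pair the same surroundings held 24 quantified neighbours for miR-155 and 21 for miR-21. Among the missing neighbours of miR-155, miR-572 read Ct 24.9 in NCS and 39.8 in untreated cells. Another, miR-488, read 29.8 in NCS and gave no Ct in untreated cells. The distance of miR-155 from all wells around it was therefore not measured. miR-146b-5p, at 1.10, lay below the median of the 9 other quantified wells of its plate column, 2.95. It was 0.80 above its panel and 0.78 above 13 neighbours. With each panel centred separately it was at 0.30, so its 2-fold difference after NCS was not kept. miR-146a, in contrast, stood at -0.93 relative to its panel and -1.34 relative to 9 neighbours, and miR-21* at -0.77 and, against 13 neighbours, -1.76.

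In shDDX1, miR-146b-5p stood at -1.57 relative to the panel I median and at -1.69 relative to its 23 neighbours. The median of the 14 other quantified wells of its plate column was -1.33, so its ratio of -1.99 was within 2-fold of that column. miR-155 stood at -1.11 relative to its panel but at -0.62 relative to its 24 neighbours, so it was within 2-fold of the wells around it. miR-21 and miR-21* were 1.24 and 1.18 above their neighbours, both past 2-fold, among wells whose medians were -1.51 and -0.83. The well of miR-155, G16, adjoins H16, where miR-572 read Ct 27.1 in shDDX1 and 19.2 in shNS. Further wells of column 16 held very early shNS readings, of 8.45 for miR-570 and 14.9 for miR-548c-3p, and whether they bear on G16 was not tested.

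**Figure D3:**
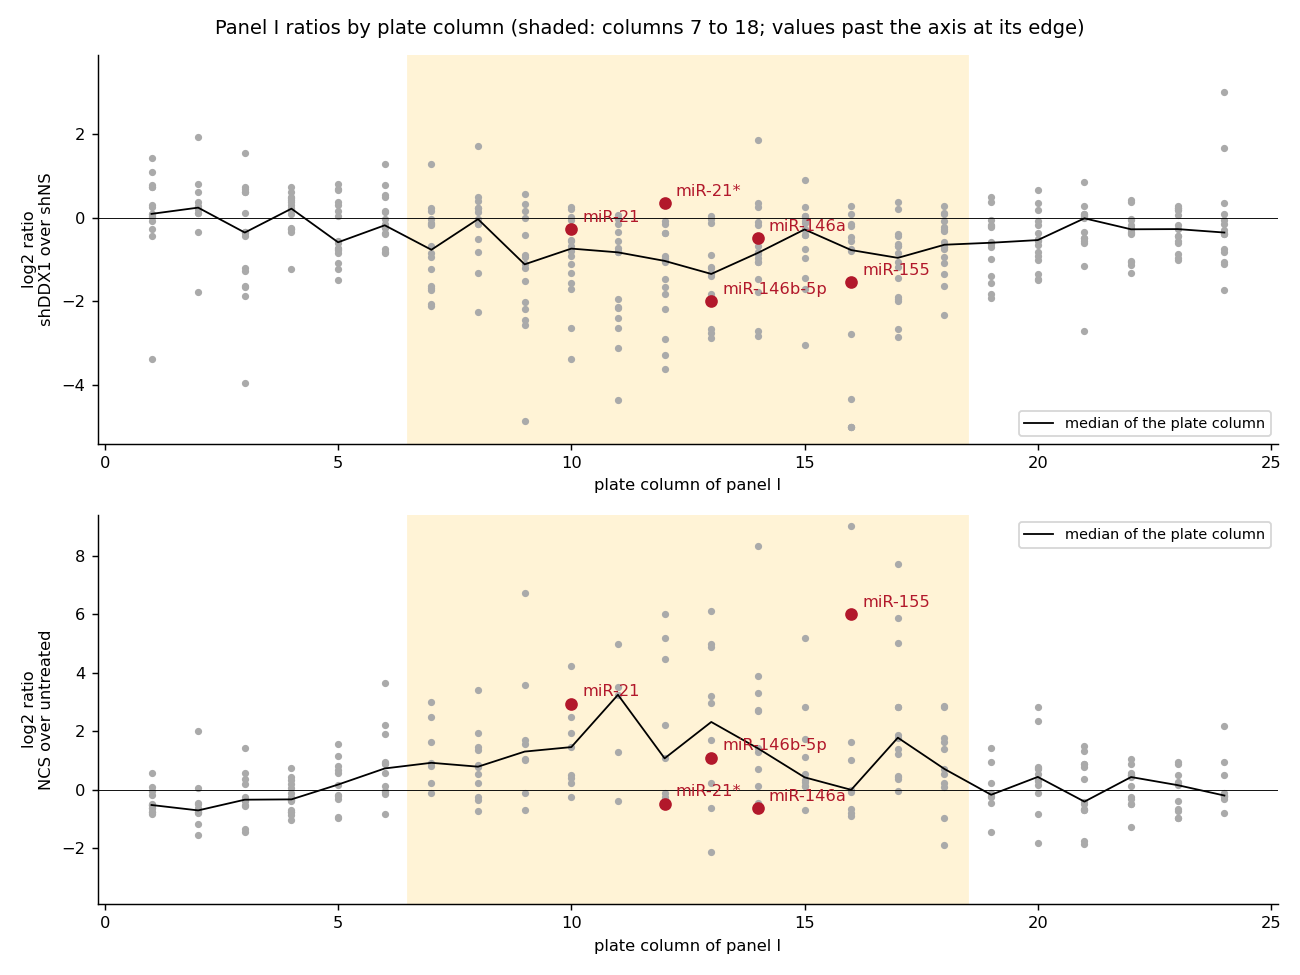
Log2 ratios of all quantified miRNA wells of panel I by plate column, for shDDX1 over shNS (top) and NCS over untreated (bottom), with the column medians as a line, columns 7 to 18 shaded and the members in red; values beyond the axis are drawn at its edge. All 5 members lie in the shaded columns, and in the lower plot miR-155, at 6.00, stands well above the median of the 8 other quantified wells of its column. Wells of that column with a late or missing untreated reading are not in that median, such as miR-548c-3p, with Ct 28.0 in NCS and none in untreated cells.

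**Figure D4:**
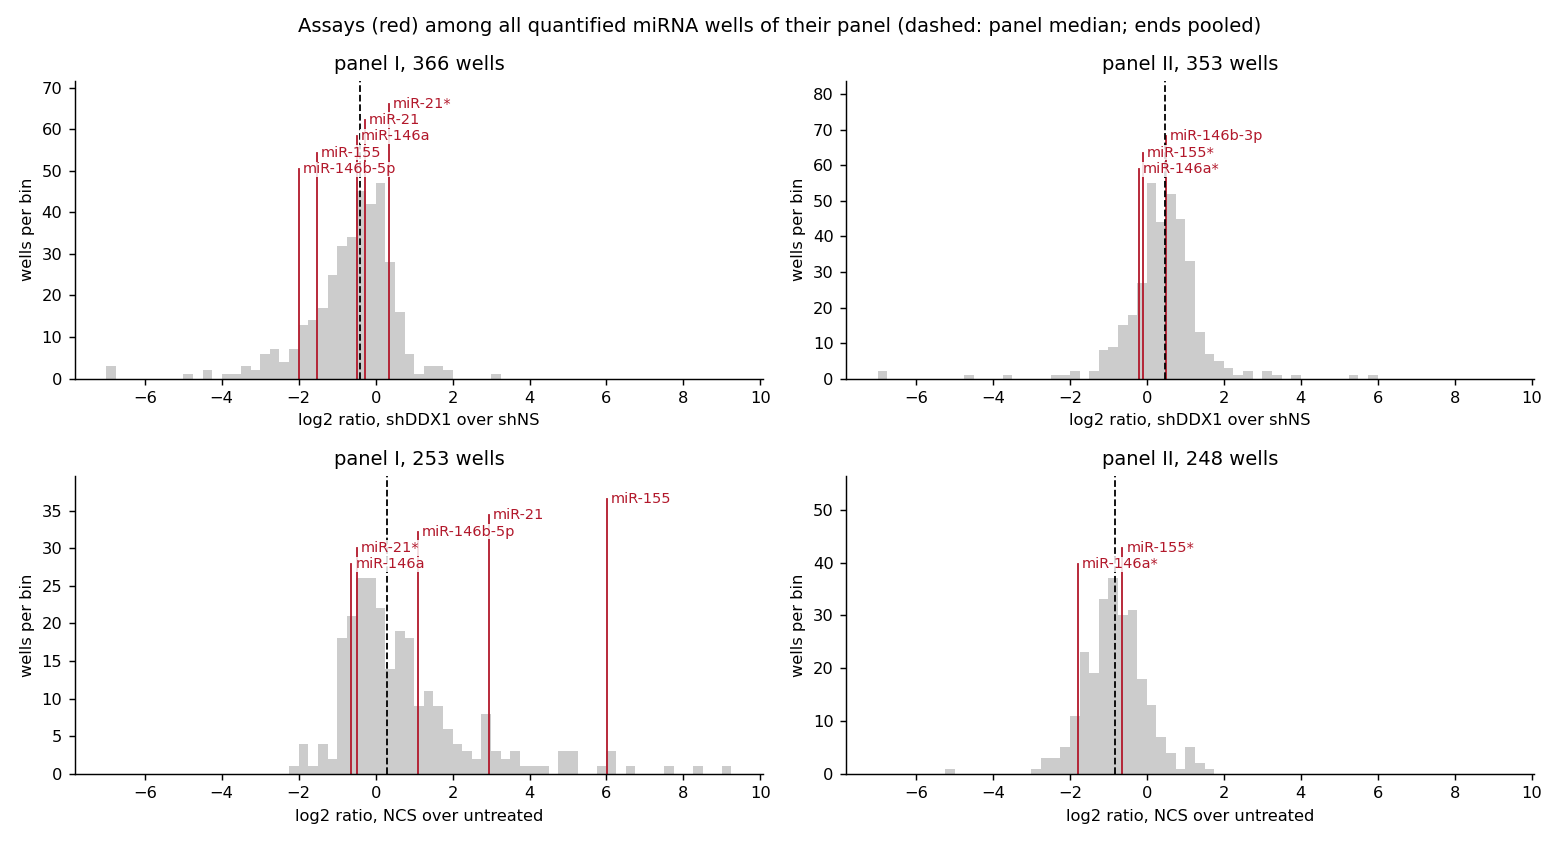
Distribution of log2 ratios over the quantified miRNA wells of panel I (left) and panel II (right), for shDDX1 over shNS (top) and NCS over untreated (bottom), with each member as a red line and the panel median dashed; values below -7 or above 9 are pooled at the ends. After NCS, miR-155 and miR-21 lie in the upper tail of panel I, at ranks 7 and 27 of 253 wells.

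Each sample of the NCS pair was also set beside shNS, well by well. shNS is a single sample of the other pair and was read at earlier Ct. These distances therefore describe the samples and cannot settle which sample of the NCS pair departed. On panel I, NCS cells read later than shNS by a median of 3.12 cycles, and untreated cells by 4.58 cycles, with 5th and 95th percentiles of 2.52 and 9.02 in untreated cells. miR-155 was 3.21 cycles later than shNS in NCS cells and 9.94 cycles later in untreated cells, and miR-21 3.08 and 6.76 cycles. Both guides lay near the panel median in NCS cells. In untreated cells miR-155 lay beyond the 95th percentile of the panel but inside that of columns 7 to 18, where it sits, at 10.5 cycles with a median of 5.08. miR-21 lay above both medians and inside both percentiles. miR-21* was late in both, by 5.98 and 6.24 cycles, while miR-146a was at 3.88 and 3.98 and miR-146b-5p at 2.37 and 4.20. Loss of signal in the untreated wells of miR-155 and miR-21 was not tested.

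The 2 arms of a hairpin come from 1 precursor, and the distance between their Ct values within a sample does not depend on the centring when they share a panel, as those of miR-21 do. miR-21* read 4.21 cycles later than miR-21 in shDDX1, 4.84 in shNS, 7.73 in NCS and 4.31 in untreated cells. The NCS sample stands apart from the other 3. The balance of miR-21 over miR-21* was thus 3.42 higher on the log2 scale in NCS than in untreated cells, and differed by -0.63 in shDDX1 from shNS.

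miR-155* read later than miR-155 by 4.90 cycles in shDDX1, 6.32 in shNS and 5.32 in NCS, but in untreated cells it read earlier, at a difference of -1.32 cycles. Here it is the untreated sample that stands apart, where the guide read later than its star arm. The balance of guide over star was 6.64 higher in NCS than in untreated cells, or 5.01 with each panel centred. In shDDX1 it differed from shNS by -1.42, or by -0.57 with each panel centred. miR-146a* read later than miR-146a by 5.03 cycles in shDDX1, 5.31 in shNS, 5.82 in NCS and 4.65 in untreated cells, a range of under 2 cycles. For miR-146b the 3p arm minus the 5p arm was -1.53 cycles in shDDX1, 0.96 in shNS and -1.31 in untreated cells. The balance of miR-146b-5p over miR-146b-3p in shDDX1 differed from shNS by -2.49, and by -1.64 with each panel centred. Both arms of miR-146b read later than a water well of their panel in shDDX1 and in shNS, and the share of background in this balance was not tested.

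**Figure D5:**
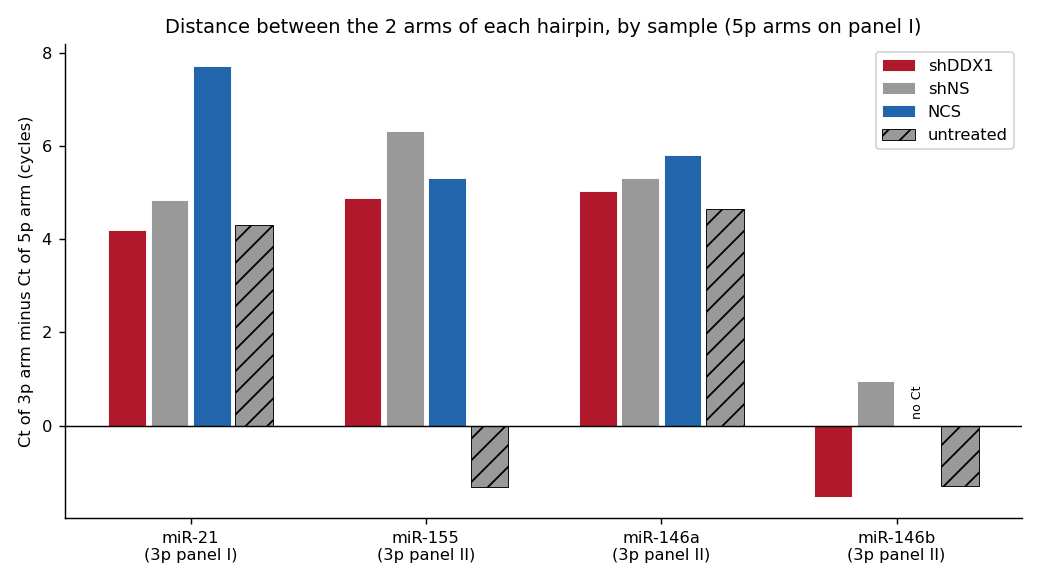
Ct of the 3p arm minus Ct of the 5p arm for each hairpin, in cycles, with a bar per sample starting at 0; arms share a panel only for miR-21. The bar of miR-21 is tallest in NCS, at 7.73, and that of miR-155 is below 0 in untreated cells, at -1.32, while the bars of miR-146a lie between 4.65 and 5.82.

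Other miRNAs reported to respond to NF-kB, AP-1 or STAT3 were described as a list of 27 assays. In shDDX1 2 were at least 2-fold lower, 4 higher and 21 within 2-fold, or 7.41% lower and 14.8% higher against 17.3% and 11.0% of all miRNAs, with a median log2 ratio of 0.09. Their extremes were miR-30b* at -1.66 and miR-29b, a repressor of collagen messages, at 1.86. Of the 25 quantified after NCS, 3 were higher and 8 lower, or 12% and 32% against 16.9% and 22.3% of all miRNAs. Their median of -0.38 equalled that of all miRNAs to the second decimal, and with each panel centred it was -0.63 against -0.20. The highest was miR-29b-2* at 2.84 and the lowest miR-23b* at -2.20. miR-132, induced with miR-146a and miR-155 by bacterial endotoxin in human monocytes, had -0.48 in shDDX1 and -0.69 after NCS.

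Among 13 assays of p53 transcriptional targets, 1 was lower and 2 higher in shDDX1, or 7.69% and 15.4% against 17.3% and 11.0% of all miRNAs, from miR-34a at -1.94 to miR-194* at 1.12. miR-34a, the best-known p53 target among miRNAs, read Ct 23.6 in NCS and 35.8 in untreated cells, past the limit, so like miR-155 it lies on panel I with a late untreated reading. After NCS 4 of 12 quantified were higher and 2 lower, from miR-194* at -1.19 to miR-34c-5p at 3.64. These are 33.3% and 16.7%, against 16.9% and 22.3% of all miRNAs, and 3 of the 4 higher ones lie on panel I, where 30.4% of wells were higher. With each panel centred, these became 3 higher and 0 lower. Of 7 assays best known from blood cells, where miR-155 and miR-146a are also abundant, 2 were lower and 1 higher in shDDX1, from miR-142-3p at -1.07 to miR-144 at 1.54. All 7 lie on panel I, where 29.0% of wells were lower and 2.73% higher, and with each panel centred 0 were lower and 1 higher. After NCS 1 of 5 quantified was higher, miR-142-3p at 2.84, and 2 were lower, with miR-451 lowest at -1.83. On panel I 30.4% of wells were higher and 4.74% lower, and with each panel centred 1 was higher and 3 were lower.

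The miRNAs with the most similar pattern were sought by the distance between centred levels over the 4 samples, each assay's own mean removed, among 496 assays quantified in all 4. Nearest to miR-155 were miR-101, miR-339-5p and miR-96, at distances from 0.63 to 0.81, where the median assay was at 5.23. Nearest to miR-21 were miR-455-5p, miR-545 and miR-760, at distances of 0.42 to 0.53 against a median of 2.88. All 6 are panel I assays in columns 9 to 18. For miR-146b-5p the nearest were miR-134, miR-489 and miR-429, from 0.57 to 0.70. miR-146a lay nearest to miR-132, at 0.12, then miR-342-5p and miR-520c-3p. Of the star arms, miR-21* was nearest to miR-1253, miR-326 and miR-593, miR-155* to miR-574-3p, miR-650 and miR-522, and miR-146a* to miR-1269, miR-642a and miR-496.

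The authors' deposited fold table has the same guides above 2-fold after NCS, with miR-155 at 79.3-fold, miR-21 at 10.2-fold and miR-146b-5p at 3.23-fold of untreated cells. In the authors' deposited table of shifted Ct values miR-155 stands at 24.4 in NCS and 30.7 in untreated cells. miR-146b-3p has a fold of 0.00204 in the authors' deposited table, although its NCS well has no Ct. For miR-146a* the authors' deposited fold is 0.516, short of 2-fold. For shDDX1 over shNS the authors' deposited fold table lists 0.28 for miR-155 and 0.204 for miR-146b-5p. For miR-21 it lists 0.967, whereas the authors' deposited shifted Ct values of 16.4 in shDDX1 and 15.9 in shNS give 0.671. miR-21 was 1 of 2 assays out of 736 in that pair whose listed fold departed from the shifted Ct by more than 0.01 on the log2 scale. No source used here explains the difference, and neither value is past 2-fold.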

How the data were processed

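miRNA was measured by quantitative PCR in 4 U2OS samples. Per the labels' protocols, Trizol RNA was copied with Exiqon reagents and read by SYBR Green on 2 panels of 384 wells. Instrument, threshold and software are not stated in the labels or files used. Deposited by the authors were Ct values per well, a table of shifted Ct values and a table of linear fold over each control. Against the Ct table, the shift was constant per panel for all 8 members in the knockdown pair and differed by well in the NCS pair, by a method not given. Ratios started from the Ct table. Wells repeated across panels were averaged. Only miRNA wells entered centring and counts. Named assays were all members, seed-sharing assays, the extremes of each list and the 3 nearest patterns per member. Members and lists were chosen with earlier results of these data known. Calculations used Python 3.11.15, pandas 2.3.3, numpy 2.4.6 and matplotlib 3.10.9, with the ratio code tested on simulated data. With 1 sample per group no p-value was computed.

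Alternatives were median centring, small RNA references (U6, SNORD38B, SNORD49A), reference miRNAs (miR-103, miR-191, miR-423-5p), no centring, each panel centred, plate calibrators, subtraction of neighbouring wells, the authors' deposited tables, Ct limits of 37, 32 or none, and thresholds of 1.5-fold and 4-fold. The first 6 and the mean centring are the 7 scalings.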

Additional observations from a re-analysis of the deposited data

Results flagged for a closer look

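Water wells lie outside the main measurement and gave a signal. On panel I 1 of 2 water wells had a Ct in shDDX1 and in shNS, of 27.3 and 27.8. On panel II 6 of 7 had a Ct in shDDX1 and 5 of 7 in shNS, the earliest at 26.5 and 26.6. In NCS and untreated cells 0 of 9 did. miR-155, at 26.6 in shDDX1 and 24.8 in shNS, read 0.70 and 3.01 cycles before the panel I water well. miR-146b-5p read 3.62 cycles after it in shDDX1 and 0.86 in shNS. No explanation was tested.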

How the results depend on the processing

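No paired analysis was possible because no group holds more than 1 sample. The 2 members lower in shDDX1 became 1 after subtraction of neighbouring wells and 0 at 4-fold, and the 0 higher became 2 after subtraction of neighbouring wells. The 3 higher after NCS became 1 at a Ct limit of 32, where 3 members were quantified. The 1 lower after NCS, miR-146a*, was lost with each panel centred (-0.97) and after subtraction of neighbouring wells (-0.99), where the count became 2 through other members, miR-21* (-1.28 and -1.76) and miR-146a (-1.43 and -1.34). The count became 3 at 1.5-fold, and 0 at a Ct limit of 32, at 4-fold and in the authors' deposited normalized and fold tables. All other alternatives left these 4 counts within 1.5 times. The arm balance of miR-146a after NCS, 1.17 higher than in untreated cells, was -0.46 with each panel centred. Ct limits leave a single ratio as it is. Of 135 single ratios under the other alternatives, 85 moved by less than the spread of the repeated assays and 50 by more. Of the single ratios past 2-fold with mean centring, 0 changed sign. In shDDX1 over shNS, miR-21 was within 2-fold with mean centring, at -0.27. With neighbouring wells subtracted it was past 2-fold in the opposite direction, at 1.24. The causes were not tested. Late Ct limits miR-155 in untreated cells and miR-146a* in both samples of the NCS pair, and background in water wells limits miR-146b and the star arms on panel II in the knockdown pair.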

Other observations

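The authors' deposited shifted Ct values were checked well by well against the Ct table. In the knockdown pair the median shift was -0.789 cycles for panel I wells (370 compared in shDDX1, 371 in shNS) and 0.789 cycles for panel II wells (362 in each). All 8 members followed it. The wells that departed by more than 0.001 cycles were miR-200c, miR-429 and miR-200b* in shDDX1 and miR-429 in shNS, each by -2.0 cycles. In the authors' deposited fold table miR-200c is listed at 0.489 in shDDX1 and 2.0 in NCS, where those shifted values give 1.39 and 1.3, differences of -0.9 and 0.7. How these values arose is not given in the sources used here and was not tested.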
